A study of Mus musculus with 8 samples.

Results

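The 37 genes described here encode proteins of DNA repair and of the replication checkpoint. They were chosen by symbol, with earlier results of these data known. The groups were homologous recombination (14 genes), Fanconi anaemia (8), mismatch repair (2), end joining (4), single-strand break repair (2) and checkpoint (7). All 37 symbols were found among the 24421 rows of the count table, and all 37 were among the 11797 genes with enough counts to be tested. They lay on 16 chromosomes and averaged between 4.97 and 321 CPM (counts scaled to library size with TMM factors) in one line or the other, and their lowest count in any library was 79, so none rested on a handful of reads.

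The RNA came from KPCY cells, a line of mouse pancreatic cancer cells whose sex the labels give as male. The tested cells were a stable line carrying a lentiviral inhibitor of the microRNA miR-27a-3p (the knockdown, 4 libraries), set against a stable line carrying a scrambled sequence (4 libraries). Both lines were selected in puromycin at 2 µg/mL for 7 days and grown in medium with 4.5 g/L glucose and 10% serum, and cells were collected for RNA 24 hours after they were seeded. The labels name 1 transduced line per group, so the 4 biological replicates of each are repeats of 1 line, and the p-values measure the spread between such repeats and not between independent transductions.

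Homologous recombination copies an intact sister DNA to mend a double-strand break. The Fanconi pathway unhooks DNA crosslinks that block replication forks, and the ATR and CHEK1 kinases hold the cell cycle while a stalled fork is repaired. Many genes of these pathways are transcribed as cells enter S phase under E2F factors, whereas the Ku proteins and their partners, which rejoin broken ends directly, act through the whole cycle. A microRNA lowers a transcript by pairing its seed, bases 2 to 8, with the transcript's 3′ untranslated region.

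The targeted microRNA and its close relative miR-27b-3p are shown because the search for target sites below turns on their common seed (RefSeq sequences, GRCm38.p6 coordinates, seed in capitals). miR-27a-3p is encoded at chr8:84208727-84208747 on the plus strand and miR-27b-3p at chr13:63300760-63300780 on the plus strand.
miR-27a-3p: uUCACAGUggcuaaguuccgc
miR-27b-3p: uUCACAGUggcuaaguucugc
The seed has the same letters in both. Poly(A)-selected libraries do not hold mature microRNAs, so the level of miR-27a-3p itself was not measured here.

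Most of the 37 genes were slightly lower in the knockdown line. In the quasi-likelihood test of edgeR, with Benjamini-Hochberg adjustment over all tested genes, 21 of the 37 fell (56.8%), 2 rose (5.41%) and 14 passed in neither direction at an adjusted p under 0.05. Of all tested genes 24.1% fell and 23.8% rose. In one direction or the other 47.9% passed, so that a call on its own was common in this comparison. Of the 127 other repair genes tested, described below, 29.9% fell and 12.6% rose. The falls among the 37 genes were small. The median log2 fold change, knockdown over scrambled, was −0.18 over the 37 genes and −0.31 over the 21 that fell, against 0.0017 over all tested genes, and the 37 values ran between −0.42 and 0.29. For 32 of the 37 the log2 fold change was below 0. The 4 knockdown values lay wholly below the 4 scrambled values for 19 of the 37 genes and wholly above them for 1, where 21.1% of all tested genes lay wholly below and 21.0% wholly above. Such a fall in bulk RNA can come from fewer cells that express a gene or from less RNA per cell, which cannot be told apart here.

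**Figure D1:**
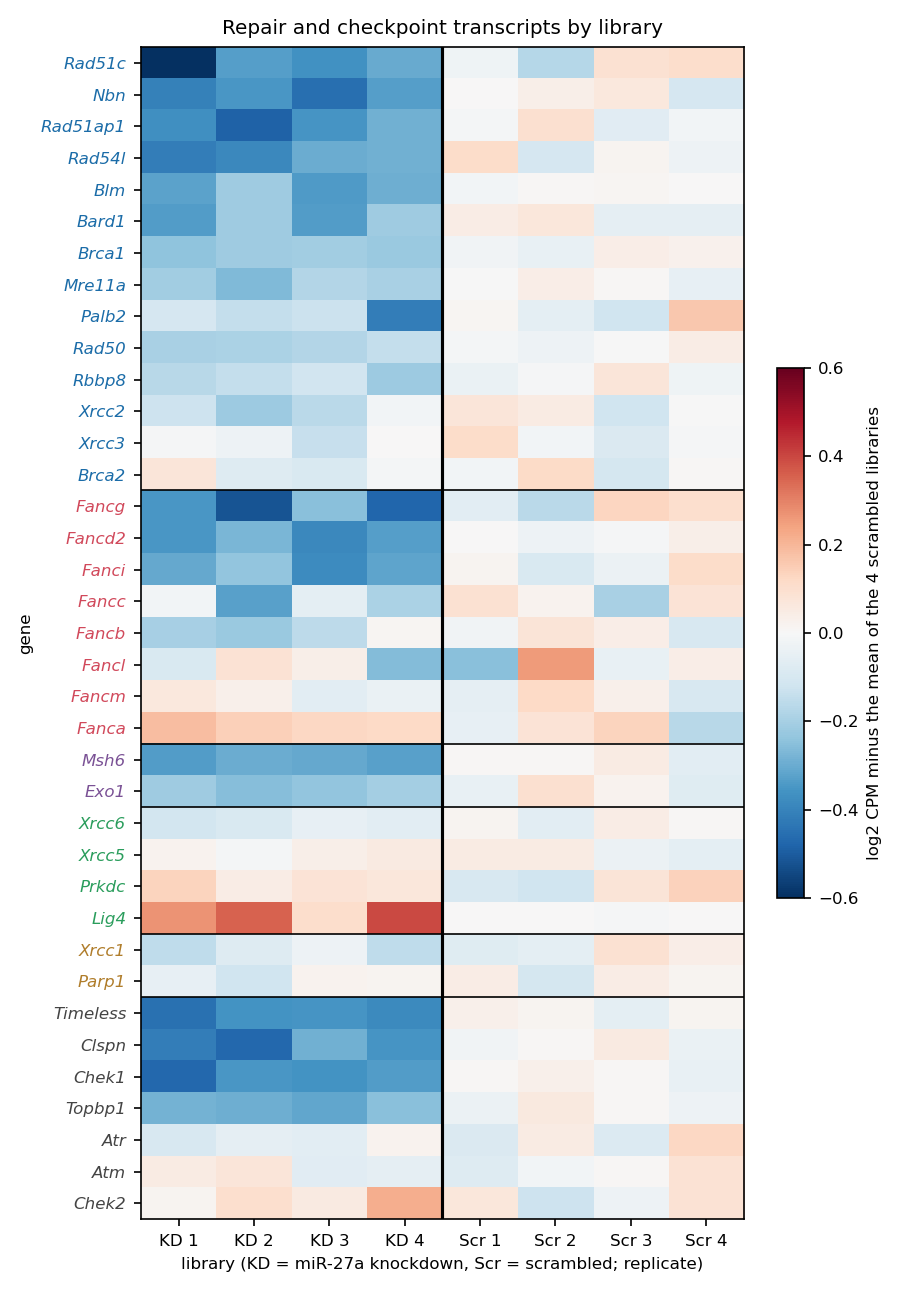
Each column is a library (KD, knockdown; Scr, scrambled) and each row one of the 37 genes, grouped by class; colour gives log2 CPM minus the mean of the 4 scrambled libraries, blue for lower and red for higher. Most recombination rows and the Timeless, Clspn, Chek1 and Topbp1 rows are blue in all 4 knockdown columns, while Lig4 is red in all 4.

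Library totals were 19165513 to 23542275 counts. Scrambled replicate 2 stood apart, with a chi-square of 5.17 to 5.35 per gene against the other scrambled libraries, which differed among themselves by 1.80 to 2.35, as the knockdown libraries did by 1.73 to 1.95. Without it 23 of the 37 genes fell, among them all 21 of the full comparison, and 2 rose. All 6 pancreatic epithelial markers were detected in both lines, with summed levels of 11298 to 11627 CPM in knockdown and 10631 to 11598 CPM in scrambled libraries. Among them Krt7 (0.31 on the log2 scale), Cdh1 (0.23) and Krt18 (0.07) rose, Krt19 fell by 0.08, and Epcam (−0.34, adjusted p = 0.0718) and Krt8 (−0.03) did not pass. Fibroblast markers were near 0 (none of 7 over 1 CPM, with Col1a2, Dcn, Lum and Pdgfrb at 0), as were endothelial markers (none of 4 over 1 CPM), and 1 of 6 leukocyte markers and 1 of 5 acinar markers passed 1 CPM. The leukocyte marker, Cd68, did not pass the test (−0.18), and the acinar marker, Cela1, fell by 0.48 (2.36 ± 0.441 CPM in knockdown and 3.29 ± 0.675 CPM in scrambled libraries, SD, n = 4 each; adjusted p = 0.0297, edgeR). The part of these marker differences in the results was not tested.

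Homologous recombination held the most falls. Of its 14 genes 11 fell (78.6%), none rose and 3 passed in neither direction, where 24.1% of all tested genes fell and 23.8% rose. The median log2 fold change was −0.22. These values are for the 14 chosen genes. Of 24 other recombination genes tested, 6 fell (25.0%) and 2 rose, with a median of −0.05. BRCA1 and BARD1 form the ubiquitin ligase that favours recombination at a break. Brca1 was at 95.0, 97.0, 97.3 and 96.3 CPM in knockdown replicates 1 to 4, against 111, 109, 115 and 114 CPM in scrambled replicates 1 to 4. Bard1 was at 38.6, 42.0, 38.7 and 42.0 CPM in the knockdown libraries, against 50.2, 51.0, 46.9 and 46.9 CPM in the scrambled ones. The groups did not overlap for either gene. Brca1 fell by 0.22 on the log2 scale (SE 0.0305, adjusted p = 2.81e-06, edgeR), a drop of 14.3%, and Bard1 fell by 0.27 (SE 0.0468, adjusted p = 4.81e-05). Their ratio in each library did not separate the lines, with a log2 ratio 0.05 higher in knockdown (exact two-sided permutation p = 0.4).

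MRE11, RAD50 and NBN form the complex that first binds a broken end and starts its trimming. Mre11a was at 68.4, 65.7, 70.0 and 69.0 CPM in knockdown replicates and at 79.0, 81.3, 79.4 and 76.5 CPM in scrambled replicates. For Rad50 the knockdown libraries gave 101, 101, 102 and 104 CPM and the scrambled libraries 114, 113, 115 and 119 CPM. Nbn, which carries ATM to the break, gave 31.9, 33.2, 30.9 and 33.6 CPM in knockdown against 42.3, 43.4, 44.2 and 39.5 CPM in scrambled libraries. All 3 genes were lower in every knockdown library than in any scrambled one. Nbn fell most, by 0.39 on the log2 scale (SE 0.0488, adjusted p = 8.91e-07), a drop of 23.5%, while Mre11a fell by 0.21 (SE 0.0352, adjusted p = 3.48e-05) and Rad50 by 0.18 (SE 0.0298, adjusted p = 4.44e-05). Within libraries the log2 ratio of Mre11a to Nbn was 0.17 higher in knockdown and that of Rad50 to Nbn 0.21 higher, and in both cases the lines did not overlap (exact permutation test, two-sided p = 0.0286, the least possible with groups of 4). Over the 13 partner ratios examined for the whole gene set, the adjusted value was 0.0743, so no ratio passed 0.05.

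RAD51AP1, RAD54L and RAD51C assist the search for the sister DNA and its invasion, and BLM is the helicase that takes the joined molecules apart. Rad51ap1 was at 39.1, 36.0, 39.4 and 41.3 CPM in knockdown libraries, against 50.0, 53.9, 48.1 and 50.0 CPM in scrambled libraries, with no overlap. It fell by 0.37 on the log2 scale (SE 0.0484, adjusted p = 1.35e-06). Rad54l fell by 0.35 (24.5 ± 1.07 CPM in knockdown and 31.2 ± 1.93 CPM in scrambled libraries, SD, n = 4 each; adjusted p = 2.5e-05, edgeR), though 15.36% of its exon bases also lie in Lrrc41 on the opposite strand, which rose by 0.13. Blm fell by 0.29 (42.8 ± 1.71 CPM in knockdown and 52.4 ± 0.462 CPM in scrambled libraries; adjusted p = 4.41e-06). Rad51c had the lowest mean of the 37 genes and the largest fall, 0.42 on the log2 scale, but also the largest standard error, 0.115 (adjusted p = 0.0043), with 4.04, 5.28, 5.16 and 5.38 CPM in knockdown and 6.51, 5.89, 7.07 and 7.14 CPM in scrambled libraries.

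The remaining recombination genes moved less. Rbbp8, which encodes the end-trimming partner of MRE11 known as CtIP, fell by 0.16 on the log2 scale (47.0 ± 1.43 CPM in knockdown and 52.5 ± 1.84 CPM in scrambled libraries, SD, n = 4 each; adjusted p = 0.00287, edgeR). Palb2, the bridge between BRCA1 and BRCA2, fell by 0.20 (adjusted p = 0.0377), a call that was lost without knockdown replicate 4, scrambled replicate 1 or scrambled replicate 4. Brca2, which prepares resected DNA for strand invasion, did not pass: it was at 39.9, 36.0, 35.6 and 37.6 CPM in knockdown and 37.5, 41.0, 35.2 and 38.2 CPM in scrambled libraries, with a log2 fold change of −0.02 (95% interval −0.13 to 0.08; adjusted p = 0.733). Xrcc2 and Xrcc3, which assist strand invasion, did not pass either, with log2 fold changes of −0.13 for Xrcc2 (interval −0.27 to 0.01) and −0.04 for Xrcc3 (interval −0.21 to 0.13).

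**Figure D2:**
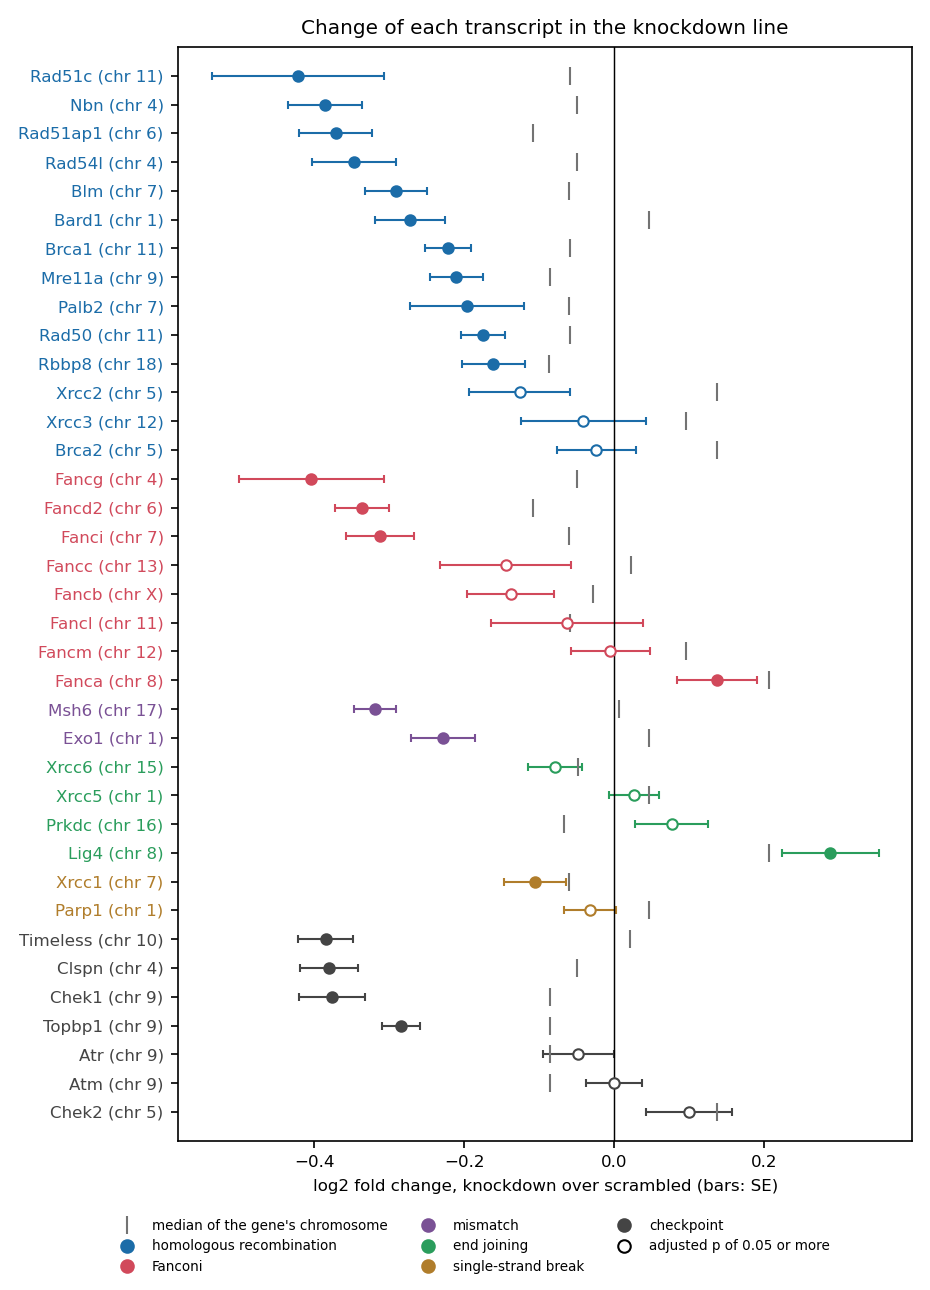
Points give each gene's log2 fold change, knockdown over scrambled, with its SE as bars; filled points passed an adjusted p of 0.05 and open points did not, colours mark the classes, and grey ticks mark the median of the gene's own chromosome. The 21 falls are the filled points left of 0, and the 2 filled points right of 0, Fanca and Lig4, both lie beside the chromosome 8 median of 0.21.

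In the Fanconi pathway the genes of the central clamp fell, and the others were mixed. Of 8 genes, 3 fell (37.5%), 1 rose (12.5%) and 4 passed in neither direction, with a median of −0.14. Of all tested genes 24.1% fell and 23.8% rose, and whether so small a class differs from them was not tested. FANCD2 and FANCI form the clamp that is ubiquitinated at a blocked fork, the central step of the pathway. Fancd2 was at 60.9, 64.2, 59.4 and 61.7 CPM in knockdown libraries, against 77.9, 76.0, 77.2 and 79.6 CPM in scrambled libraries. Fanci was at 49.2, 51.6, 46.8 and 48.8 CPM in the knockdown line, against 61.5, 57.2, 59.4 and 65.7 CPM in the scrambled line. Both clamp genes were lower in every knockdown library. Fancd2 fell by 0.34 on the log2 scale (SE 0.036, adjusted p = 7.64e-08) and Fanci by 0.31 (SE 0.0453, adjusted p = 6.02e-06), and their log2 ratio differed by −0.03 between the lines (exact two-sided permutation p = 0.43). Fanci shares 15.95% of its exon bases with Polg on the opposite strand, and Polg fell by 0.12.

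The other Fanconi members belong to the core complex, the ligase that marks the clamp, or, for Fancm, anchor it to DNA. Fancg, an adaptor within it, was at 7.58, 6.73, 8.12 and 6.93 CPM in knockdown libraries and at 9.22, 8.61, 10.5 and 10.3 CPM in scrambled libraries. It fell by 0.40 on the log2 scale with no overlap (SE 0.0963, adjusted p = 0.00144). Fanca, another of its subunits, rose by 0.14 (adjusted p = 0.0373), with 50.7, 49.2, 48.5 and 48.3 CPM in knockdown and 43.1, 47.2, 48.9 and 39.7 CPM in scrambled libraries, so that the groups overlapped. The rise of Fanca was lost on leaving out any of 6 of the 8 libraries (each of the 4 knockdown libraries and scrambled replicates 1 and 4), and the gene shares 10.5% of its exon bases with Zfp276 on the opposite strand, which rose by 0.36. It too was not called against the chromosome 8 median (−0.07, adjusted p = 0.308). Fancb had a log2 fold change of −0.14 (interval −0.26 to −0.02, adjusted p = 0.0544), Fancc of −0.14 (−0.33 to 0.04), the ligase subunit Fancl of −0.06 (−0.27 to 0.15) and the fork-remodelling translocase Fancm of −0.01 (−0.11 to 0.10).

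Both mismatch repair genes among the 37 fell, where 24.1% of all tested genes did. Whether a class of 2 genes differs from all tested genes was not tested. Of 6 other mismatch genes 2 fell and 2 rose, with a median of 0.04. MSH6 helps to recognise mispaired bases, and EXO1 removes the strand that carries the error and also trims broken ends. Msh6 was at 150, 154, 153 and 151 CPM in knockdown libraries, against 190, 191, 196 and 181 CPM in scrambled libraries. The knockdown values lay close together and well below the scrambled ones. Msh6 fell by 0.32 on the log2 scale (SE 0.0279, adjusted p = 3.43e-09), the smallest adjusted p of the 37 genes. Exo1 was at 48.4, 46.9, 47.5 and 48.6 CPM in the knockdown line, against 54.4, 59.9, 56.9 and 53.3 CPM in the scrambled line, also without overlap, and fell by 0.23 (SE 0.0426, adjusted p = 1.21e-04).

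None of the 4 end-joining genes fell in the full comparison and 1 rose, where 24.1% of all tested genes fell and 23.8% rose. Whether so small a class differs from all tested genes was not tested. XRCC5 and XRCC6 are the Ku subunits that cap a broken end, PRKDC is the kinase they recruit, and LIG4 seals the break. Xrcc5 was at 102, 99.7, 103 and 104 CPM in knockdown libraries and at 104, 104, 97.9 and 96.3 CPM in scrambled libraries. Xrcc6 gave 64.2, 64.9, 67.0 and 66.2 CPM in the knockdown line and 70.0, 66.2, 71.3 and 69.5 CPM in the scrambled line. Prkdc gave 68.8, 64.6, 66.4 and 65.7 CPM in the knockdown line and 58.6, 57.7, 66.1 and 69.0 CPM in the scrambled line. The lines overlapped for all 3 genes. Their log2 fold changes were 0.03 for Xrcc5 (interval −0.04 to 0.09), −0.08 for Xrcc6 (interval −0.15 to −0.004, adjusted p = 0.076) and 0.08 for Prkdc (interval −0.02 to 0.18). Xrcc6 was called lower when scrambled replicate 2, the library that stood apart, was left out. Lig4 was at 23.0, 24.4, 20.5 and 25.1 CPM in knockdown libraries, against 19.1, 19.1, 19.0 and 19.1 CPM in scrambled libraries. Every knockdown library was above every scrambled one, and Lig4 rose by 0.29 on the log2 scale (SE 0.0644, adjusted p = 8.04e-04). It was not called against the median of its own chromosome, chromosome 8, where its log2 fold change was 0.08 (adjusted p = 0.332).

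The single-strand break genes moved little. XRCC1 is the scaffold of single-strand break repair and PARP1 the sensor that calls it in. Xrcc1 was at 68.7, 72.2, 74.8 and 68.7 CPM in knockdown and at 72.5, 73.3, 81.3 and 78.5 CPM in scrambled libraries, which overlapped. It fell by 0.11 on the log2 scale (adjusted p = 0.0404), and the call was lost without knockdown replicate 1, 2 or 4 or scrambled replicate 3 or 4. Parp1 averaged 196 ± 9.07 CPM in knockdown and 201 ± 9.70 CPM in scrambled libraries (SD, n = 4 each), with a log2 fold change of −0.03 (interval −0.10 to 0.04).

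Of the 7 checkpoint genes Timeless, Clspn, Chek1 and Topbp1 fell (57.1%) and none rose, with a median log2 fold change of −0.28. Among all tested genes 24.1% fell and 23.8% rose. TIMELESS and CLSPN travel with the fork and relay the stall signal to CHEK1, and TOPBP1 switches ATR on. Timeless was at 59.2, 63.0, 63.2 and 61.9 CPM in knockdown libraries, against 82.4, 81.6, 77.4 and 81.6 CPM in scrambled libraries. For Clspn the knockdown line gave 66.3, 63.9, 72.5 and 69.2 CPM and the scrambled line 87.1, 88.9, 91.8 and 86.0 CPM. Chek1 was at 35.9, 39.0, 38.8 and 39.4 CPM in the knockdown line, against 50.1, 50.7, 50.0 and 48.2 CPM in the scrambled line. These 3 genes fell by nearly the same amount, with wide gaps between the lines. The log2 fold change was −0.38 for Timeless (SE 0.0364, adjusted p = 1.19e-08), −0.38 for Clspn (SE 0.039, adjusted p = 4.05e-08) and −0.38 for Chek1 (SE 0.0437, adjusted p = 2.52e-07). Topbp1 was at 264, 262, 259 and 269 CPM in knockdown libraries, against 313, 334, 322 and 315 CPM in scrambled libraries, and fell by 0.28 (SE 0.0256, adjusted p = 5.44e-09).

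The kinase genes Atr, Atm and Chek2 did not pass, whereas the kinase gene Chek1 fell. Atr was at 51.6, 53.0, 52.8 and 56.0 CPM in knockdown and at 51.9, 57.0, 52.0 and 60.2 CPM in scrambled libraries. Atm, the kinase of double-strand breaks, was at 120, 121, 110 and 111 CPM in knockdown and at 110, 114, 116 and 123 CPM in scrambled libraries. Chek2, the kinase downstream of ATM, was at 30.0, 31.8, 30.8 and 34.5 CPM in knockdown and at 31.1, 27.2, 29.1 and 31.5 CPM in scrambled libraries. The lines overlapped for all 3 genes that did not pass. The log2 fold changes were −0.05 for Atr (interval −0.15 to 0.05), −0.001 for Atm (−0.08 to 0.08) and 0.10 for Chek2 (−0.02 to 0.22). Within libraries the log2 ratio of Atr to Topbp1 was 0.24 higher in knockdown, that of Atr to Chek1 0.33 higher and that of Topbp1 to Chek1 0.09 higher. The lines did not overlap for any of them (exact two-sided permutation p = 0.0286 for each, adjusted 0.0743 over the 13 ratios). The log2 ratio of Atm to Chek2 differed by −0.10 (exact p = 0.29) and that of Timeless to Clspn by −0.004 (exact p = 0.97).

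**Figure D3:**
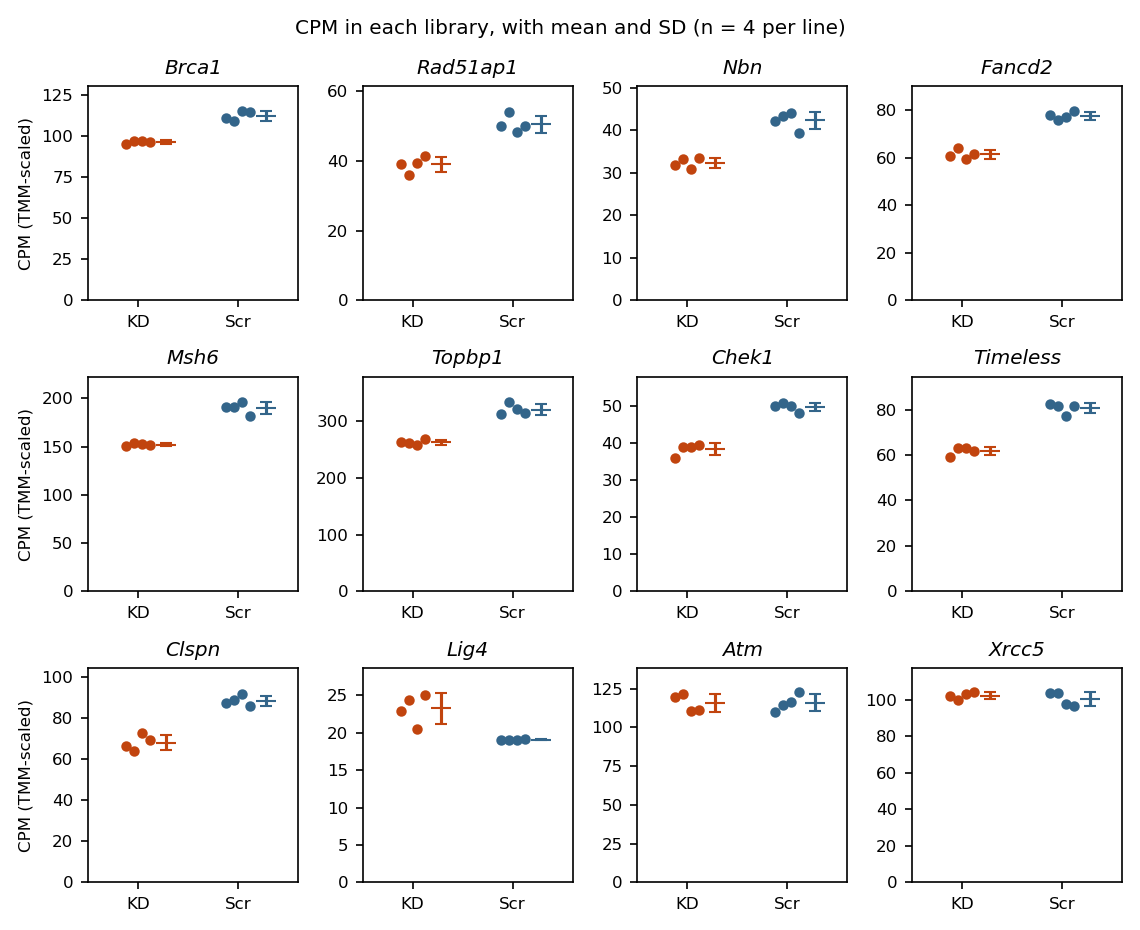
Points are the CPM of each library for 12 of the genes, with the mean and SD of 4 libraries beside them, knockdown (KD) left of scrambled (Scr); each axis starts at 0. The 9 genes from Brca1 to Clspn are lower in every knockdown library, Lig4 is higher in every one, and Atm and Xrcc5 overlap.

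Measured per kilobase of transcript, the levels of the 37 genes spanned a wide range, and both ends held genes that fell and genes that did not pass. Parp1, which did not pass, and Topbp1, which fell, had the highest levels. Parp1 averaged 50.7 CPM per kilobase in knockdown and 51.9 in scrambled libraries, and Topbp1 50.5 in knockdown and 61.5 in scrambled libraries. Among the lowest were Fancg, which fell (2.65 in knockdown, 3.49 in scrambled), and Brca2, which did not pass (3.48 in knockdown, 3.54 in scrambled).

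A stricter test kept few of the falls. Tested against a fold of 1.2 instead of against no change, 5 of the 37 genes were lower: Rad51ap1 (adjusted p = 0.0464), Nbn (0.0266), Chek1 (0.0221), Timeless (0.00443) and Clspn (0.00928), beside 4.43% of all tested genes, and none was higher, beside 4.95%. Of the 21 falls, 19 held in each of the 8 fits that left out 1 library, the exceptions being Palb2 and Xrcc1.

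The 2 rises shared a chromosome. Lig4 and Fanca both lie on chromosome 8, where the median of 647 tested genes was 0.21 on the log2 scale, the highest of any chromosome, while chromosome 5, which carries Brca2, Xrcc2 and Chek2, had a median of 0.14 and chromosome 6, which carries Rad51ap1 and Fancd2, one of −0.11. When each gene was tested against the median of its own chromosome, neither was called. On that scale 20 of the 37 genes were lower (21.2% of all tested genes), 18 of them also lower without it. Palb2, Rbbp8 and Xrcc1 were no longer called, whereas Brca2 (−0.16, adjusted p = 0.0175) and Xrcc2 (−0.26, adjusted p = 0.00326) were. Prkdc was the 1 gene higher than its chromosome (0.14, adjusted p = 0.0222), beside 19.7% of all tested genes.

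Target sites of miR-27 stood in a like share of the repair genes and of all tested genes. The longest annotated 3′ untranslated region of each gene was searched for ACTGTGAA, which matches the whole seed and ends in a further adenine. It is called the full match here. Its parts were searched too, with ACTGTGA lacking the last base but still matching the whole seed, and CTGTGAA lacking the first base. A match was present in 10 of the 37 genes (27.03%) and in 29.54% of 11356 tested genes with such a region. The median region was shorter in the 37 genes, 641 bases against 1199 in the tested genes. The shares are not adjusted for this length. Of the 10, 6 fell (Bard1, Blm, Rad50, Fancg, Exo1 and Chek1), Lig4 rose, and Xrcc2, Fancl and Xrcc6 passed in neither direction. Among them Exo1, Xrcc2, Lig4 and, in its second site, Chek1 held a match to the whole seed. Of the 27 without a match 15 fell and Fanca rose. Over all tested genes 24.2% of those with a match and 24.9% of those without one fell. The sites of the gene with the full match, of the gene with a pair of matches and of the gene with a match that rose are shown from the GRCm38 annotation, as DNA, with the match in capitals.
Exo1 (full match): agcaaatggACTGTGAAcctactgga
Chek1 (first match): gcctttggcCTGTGAActcattgtc
Chek1 (second match): ctcccaaatACTGTGAttacatagc
Lig4: ctgtccagtACTGTGAtaaatcttt
Nbn, Timeless, Clspn and Msh6, which fell with small adjusted p-values, held no match in these regions. Their regions were 128, 685, 900 and 87 bases long, below the median of 1199 in tested genes, and a short region leaves little room for a match.

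The promoters of the repair genes often held the short words that E2F factors bind. RefSeq promoter windows, running from 250 bases before to 50 bases after the annotated start (GRCm38.p6), were found for 30 of the 37 genes, and none for Exo1, Rbbp8, Xrcc2, Fancd2, Rad50, Prkdc and Nbn. They were searched on both strands for TTCCCGC, then for TTGGCGC, then for TTCGCGC and lastly for TTGCCGC, and a match to one word can overlap a match to another on the opposite strand. At least 1 word was present in 18 of the 30 windows (60.0%), against 17.9% of 9071 windows of tested genes and 9.7% of all 27025 windows, with a median GC content of 59.8% in the repair windows and 61.3% in those of tested genes. Of the 18 genes with a word 11 fell and Lig4 rose. Of the 12 without one 5 fell and Fanca rose. Among all tested genes 28.6% of those with a word and 23.0% of those without one fell. CCAAT, which NF-Y binds, was in 18 of the 30 windows (60.0%) and in 39.3% of those of tested genes, and the mitotic words TTTGAA or its variant TTCGAA were in 2 (6.7%) and in 13.4%. These matches are letters in a window, and binding was not measured. The windows of Timeless, Xrcc6 and Fancc start 6001, 28534 and 65533 bases inside the gene's outermost annotation, at another start than its first.

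In 8 genes the E2F word lay after the RefSeq start used, between positions 13 and 44 from it, and 7 of these 8 fell. That start lies 448, 409 and 407 bases inside the gene's outermost annotation for Rad51c, Fanci and Chek1. For Fancg, whose word lies before the start used, it lies 205 bases inside. The place of a word is therefore relative to the start used. Of the 10 genes whose words all lay before the start 4 fell (Bard1, Blm, Fancg and Topbp1). Among tested genes 34.3% of the 332 with a word after the start and 27.1% of the 1294 with words before it alone fell, and whether the falls went with the place of the word was not tested. The windows of 4 of the falling genes are printed with that of Atm, which has a word at a like position and did not pass, and that of Rad54l, which fell and has no word. Each runs 5′ to 3′ on the gene's strand and ends 50 bases after the start, with the E2F word in capitals. Rad51ap1 is at chr6:126939538-126939837 (minus strand), Fanci at chr7:79392088-79392387 (plus), Msh6 at chr17:87974800-87975099 (plus), Clspn at chr4:126556730-126557029 (plus), Atm at chr9:53536622-53536921 (minus) and Rad54l at chr4:116123641-116123940 (minus).
Rad51ap1: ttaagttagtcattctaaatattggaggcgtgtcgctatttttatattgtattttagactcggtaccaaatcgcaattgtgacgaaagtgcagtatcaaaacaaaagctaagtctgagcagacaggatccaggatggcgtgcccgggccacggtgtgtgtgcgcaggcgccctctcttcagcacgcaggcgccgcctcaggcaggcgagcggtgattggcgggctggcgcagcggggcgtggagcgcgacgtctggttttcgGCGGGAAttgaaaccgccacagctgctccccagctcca
Fanci: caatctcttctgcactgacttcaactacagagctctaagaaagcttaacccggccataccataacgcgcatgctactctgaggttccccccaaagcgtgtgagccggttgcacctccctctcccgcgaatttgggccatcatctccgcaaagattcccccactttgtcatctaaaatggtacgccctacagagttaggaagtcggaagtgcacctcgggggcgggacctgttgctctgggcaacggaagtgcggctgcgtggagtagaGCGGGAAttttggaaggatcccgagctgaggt
Msh6: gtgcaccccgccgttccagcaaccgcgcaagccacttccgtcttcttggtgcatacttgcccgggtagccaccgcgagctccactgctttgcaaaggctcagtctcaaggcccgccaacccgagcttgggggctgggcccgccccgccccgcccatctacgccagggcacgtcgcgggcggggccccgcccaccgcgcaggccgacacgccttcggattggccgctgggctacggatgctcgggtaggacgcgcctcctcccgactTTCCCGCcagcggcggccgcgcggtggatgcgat
Clspn: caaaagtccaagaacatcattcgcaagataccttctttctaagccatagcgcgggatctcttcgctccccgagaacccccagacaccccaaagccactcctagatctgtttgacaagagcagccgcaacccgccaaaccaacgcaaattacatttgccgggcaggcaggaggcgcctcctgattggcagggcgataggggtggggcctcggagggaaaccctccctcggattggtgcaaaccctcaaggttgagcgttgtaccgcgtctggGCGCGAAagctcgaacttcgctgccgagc
Atm: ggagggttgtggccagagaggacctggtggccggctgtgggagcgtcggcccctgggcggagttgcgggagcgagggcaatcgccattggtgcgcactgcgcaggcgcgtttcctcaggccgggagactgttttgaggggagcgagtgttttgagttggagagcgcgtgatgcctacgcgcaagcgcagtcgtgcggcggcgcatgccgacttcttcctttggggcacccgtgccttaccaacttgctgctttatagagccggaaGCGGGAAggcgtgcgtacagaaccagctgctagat
Rad54l: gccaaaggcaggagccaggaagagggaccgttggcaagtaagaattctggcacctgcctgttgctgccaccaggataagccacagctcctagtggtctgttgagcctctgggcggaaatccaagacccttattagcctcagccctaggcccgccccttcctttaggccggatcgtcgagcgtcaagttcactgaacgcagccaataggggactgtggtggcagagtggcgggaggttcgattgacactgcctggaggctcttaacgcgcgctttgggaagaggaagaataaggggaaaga
Rad51ap1, Fanci and Atm hold the same word, GCGGGAA, which is the reverse complement of TTCCCGC, at positions 13, 19 and 16. Rad51ap1 and Fanci fell by 0.37 and 0.31 on the log2 scale and Atm had a log2 fold change of −0.001.

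**Figure D4:**
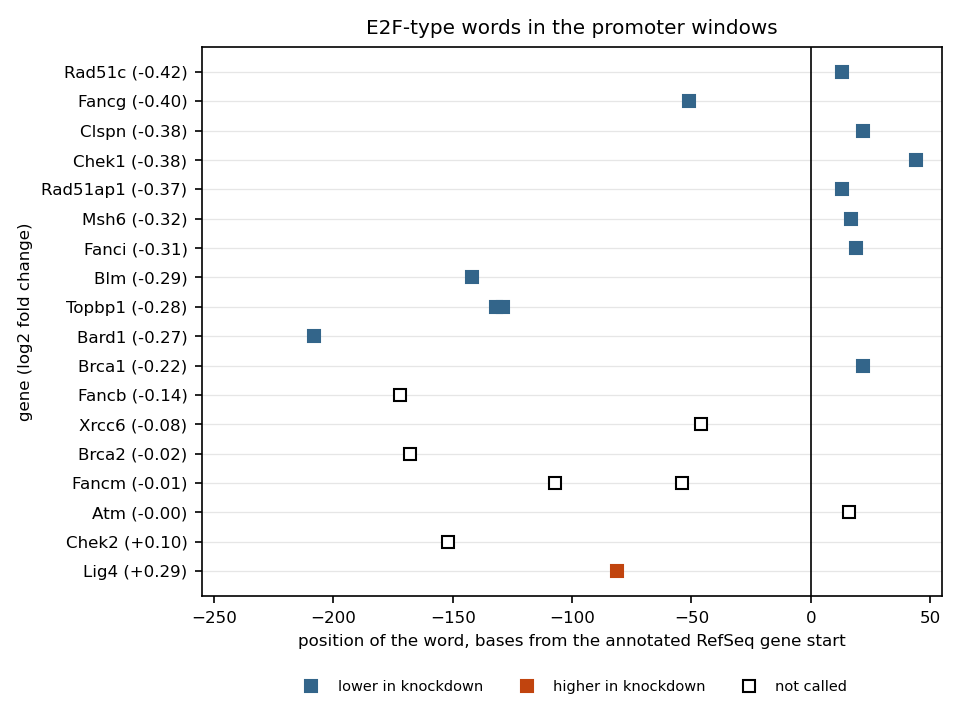
Squares mark where E2F words lie in the promoter windows of the 18 genes that hold one, in bases from the RefSeq start (0), with genes ordered by log2 fold change from the largest fall at the top; blue squares are genes lower in knockdown, the orange square is Lig4, and open squares did not pass. The words after the start belong to 7 genes that fell and to Atm.

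Other repair genes of the same pathways were examined by class. Of 136 further genes listed by pathway, 133 were in the count table and 127 were tested. Of these 38 fell (29.9%) and 16 rose (12.6%), with a median of −0.04, where 24.1% of all tested genes fell and 23.8% rose. Falls were most frequent among other checkpoint genes, where 14 of 18 fell and 1 rose (median −0.19). They included Tipin, the partner of TIMELESS, which fell by 0.37 (71.6 ± 2.02 CPM in knockdown and 92.7 ± 1.94 CPM in scrambled libraries, SD, n = 4 each; adjusted p = 6.52e-09), and Rpa1, which coats single-stranded DNA and fell by 0.21. Rad9a, of the checkpoint clamp, rose by 0.15 and lies on chromosome 19, where the median of tested genes was 0.11. Among other Fanconi genes 6 of 11 fell and none rose (median −0.15), including Brip1, the helicase bound to BRCA1, by 0.26 (adjusted p = 4.33e-05) and Usp1, which strips ubiquitin from FANCD2, by 0.18 (adjusted p = 1.39e-05).

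Genes of other repair routes moved in both directions. Other recombination genes fell in 6 (25.0%) and rose in 2 of 24 cases, a share of falls close to the 24.1% of all tested genes. The RecQ helicase Recql4 fell by 0.44 (23.3 ± 1.28 CPM in knockdown and 31.6 ± 1.61 CPM in scrambled libraries, SD, n = 4 each; adjusted p = 9.99e-07, edgeR). The helicase Wrn, on chromosome 8, rose by 0.43 and Sfr1, on chromosome 19 (chromosome median 0.11), by 0.11. Other mismatch genes fell in 2 and rose in 2 of 6 cases. Mlh3, on chromosome 12 (chromosome median 0.10), rose by 0.49 and Pms2, on chromosome 5 (chromosome median 0.14), by 0.16. Other end-joining genes fell in 3 (21.4%) and rose in 1 of 14 cases, also near that share of falls. Lig3 was lower by 0.34 and Rif1 by 0.16, and the polymerase Poll, on chromosome 19, was higher by 0.25. Lig3 shares 25.07% of its exon bases with Rffl on the opposite strand.

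In nucleotide excision repair 2 of 23 genes fell (8.7%) and 6 rose (26.1%), with a median of 0.01, against 24.1% lower and 23.8% higher among all tested genes. Gtf2h1, a subunit of the TFIIH complex, had the largest fall of all the repair genes examined, 0.76 on the log2 scale (77.4 ± 2.49 CPM in knockdown and 131 ± 3.69 CPM in scrambled libraries, SD, n = 4 each; adjusted p = 1.09e-14). Ercc3 fell by 0.09, while the damage sensor subunit Ddb1, on chromosome 19, rose by 0.20. In base excision repair 3 of 19 genes fell (15.8%) and 2 rose (10.5%): the replicative ligase Lig1 fell by 0.37 and the flap nuclease Fen1 by 0.12, whereas Polb, on chromosome 8, rose by 0.27 and the glycosylase Neil1 by 0.29. Fen1 shares 78.82% of its exon bases with Gm10143 on the opposite strand. Translesion synthesis gave 1 fall (Rad18, by 0.39) and 1 rise (Shprh, by 0.25) among 9 genes. The nucleotide pool and direct reversal genes gave 1 fall (Dut, by 0.19) and 1 rise (Nudt1, on chromosome 5, by 0.20) among 3.

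Most genes of S phase and mitosis also fell. Of 36 DNA replication genes 27 fell (75.0%) and 2 rose (median −0.18), and of 26 mitotic genes 17 fell (65.4%) and 2 rose (median −0.12). Among all tested genes 24.1% fell and 23.8% rose. Uhrf1, which maintains DNA methylation at forks, fell by 0.37 (275 ± 5.35 CPM in knockdown and 356 ± 6.15 CPM in scrambled libraries, SD, n = 4 each; adjusted p = 1.77e-11, edgeR) and Mcm2, of the replicative helicase, by 0.35. Among mitotic genes the transcription factor Foxm1 fell by 0.33 and cyclin Ccna2 by 0.23. The share of the repair gene falls that goes with a difference in cell cycle distribution between the lines was not tested.

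**Figure D5:**
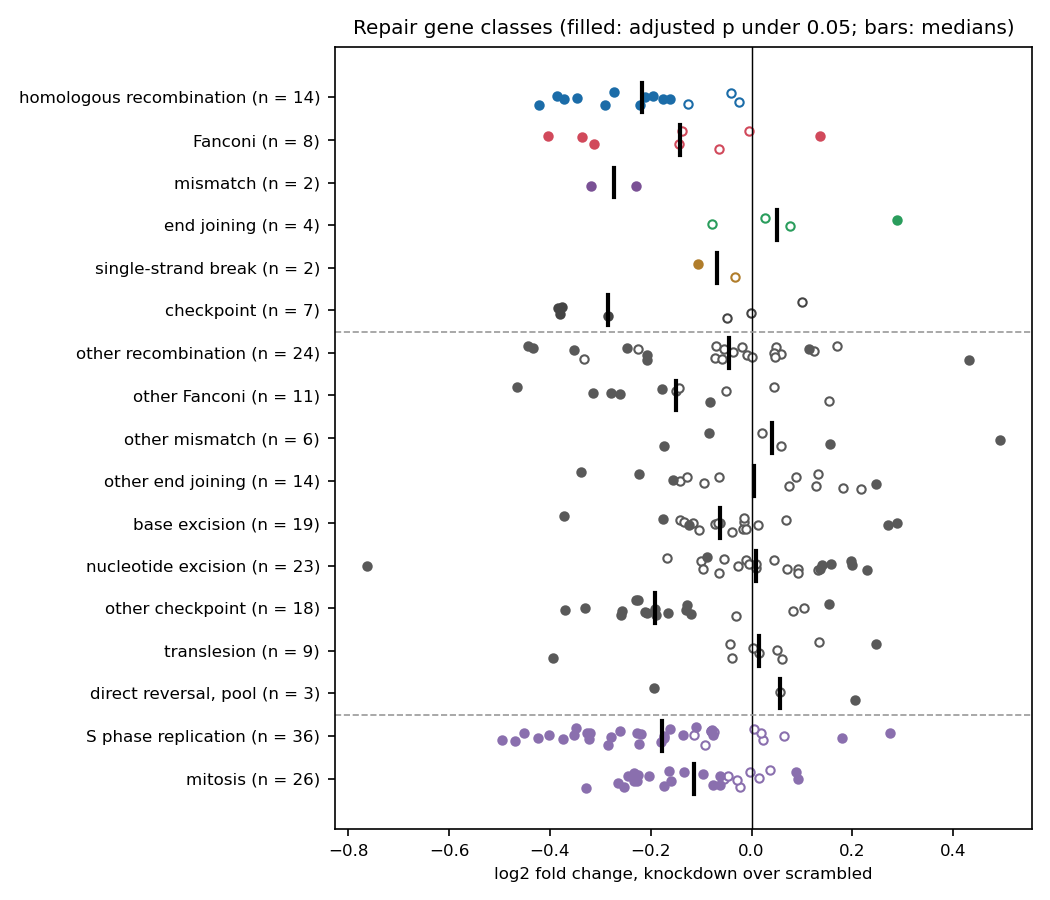
Each point is a tested gene, by class (number of genes in parentheses), at its log2 fold change, knockdown over scrambled; filled points passed an adjusted p of 0.05 and black bars are class medians, with the 37 genes above the first dashed line and the S phase and mitosis lists below the second. Among the 37 genes the recombination and checkpoint medians lie at −0.22 and −0.28 and the end-joining median near 0.05. The medians of other recombination and other checkpoint genes lie at −0.05 and −0.19. The S phase median lies at −0.18 and the nucleotide excision median near 0.01.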

How the data were processed

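The deposited values are raw counts, 1 per gene symbol and library. Per the labels' protocols, samples of integrity number 7 or higher were made into stranded poly(A) libraries and sequenced with 59 bases from each end. Build mm10 and the tools STAR, Bowtie, bcl2fastq 2.20, R 4.2.1 and DESeq2 1.36.0 are listed, per the submitters' processing notes, in no stated order. Which tool counted the reads, with what annotation and strand setting, is not given in the sources used here. Whether the counts keep apart genes that overlap on opposite strands is therefore uncertain. Of the 37 genes, 17 share exon bases with another annotated gene (at most 16.43% with any 1 gene).

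The counts went into edgeR 4.0.16 under R 4.3.3, with TMM factors, filterByExpr (minimum count 10, total 15), glmQLFit, glmQLFTest on group and Benjamini-Hochberg adjustment over 11797 genes. Standard errors were taken from the F statistic, and 95% intervals from the t distribution with the test's degrees of freedom. CPM use TMM-scaled totals, and levels per kilobase the transcript with the longest coding sequence. Exon overlaps and 3′ regions come from GENCODE annotation of GRCm38, promoters and microRNAs from RefSeq. At these totals 0 counts allow up to 3 counts, which is 0.127 to 0.157 CPM. That covers counting error alone.

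The members and lists were chosen with earlier results of these data known. All 37 genes are named. Values per library are given for up to 3 called genes per class and direction and for their partners, and also for Brca2 and Rad51c, chosen after their values were seen. Up to 2 called genes per direction are named from each other repair class, and up to 2 from each cell cycle list. Some genes that this rule takes are not reported here. Alternatives were DESeq2's size factors, upper-quartile factors, library totals, other filters, a block for the replicate number, limma-voom in limma 3.58.1, DESeq2 1.42.0, an adjusted p under 0.01, a fold of 1.2, chromosome medians as offsets, genes without exon overlap, and leaving out each library. On counts simulated from the mean levels of this comparison (11741 genes), edgeR recovered 91% of genes changed 1.2-fold and all changed 1.5-fold, with 11 false calls. The changed genes were few and drawn from those above 5 CPM. Every gene had the same spread (coefficient of variation 0.0319 beyond counting error) and no library stood apart. The real data differ in these points, so the simulated shares are not their power or error rate.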

Additional observations from a re-analysis of the deposited data

Results flagged for a closer look

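In 2 of the 74 groups of 4 libraries examined (37 genes in both lines), 1 library lay far from the other 3 by Dixon's ratio of gap to range at its 95% limit. Chance alone gives such a gap in about 5% of groups. Palb2 in knockdown replicate 4 was at 14.9 CPM, while the other knockdown replicates were at 18.0 to 18.5 CPM (gap over range 0.860), and the call of Palb2 was lost without that library. Rad51c in knockdown replicate 1 was at 4.04 CPM, while the others were at 5.16 to 5.38 CPM (gap over range 0.834). The fall of Rad51c held without that library.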

How the results depend on the processing

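Of 666 comparisons of a gene's value with an alternative, 592 kept direction and side of the threshold. The 21 falls became 21 with DESeq2's size factors, 19 with upper-quartile factors or library totals, 22 without a filter, 21 at 1 CPM in 4 libraries, 19 in DESeq2 and 21 in limma-voom, and 20 to 23 without 1 library. Same-numbered libraries showed no shared deviation in these counts (correlations −0.0350 to 0.0201). Whether libraries of the same number were handled together is not known from this. With the replicate block 20 fell, Palb2 being the loss. The fold of 1.2 left 5 falls and 0 rises among the 37 genes (recombination 2, Fanconi 0, mismatch 0, single-strand break 0), 1107 calls among all tested genes against 5645, 6 falls and 2 rises among other repair genes, 8 S phase and 1 mitotic fall. Among the 20 genes without exon overlap 13 fell and 1 rose (recombination 7, Fanconi 1, mismatch 1). With chromosome medians removed, 1 of the 37 genes and 8 other repair genes rose. At an adjusted p under 0.01, 1 and 10 rose. The single fall of the single-strand break class, Xrcc1, was lost (0) with upper-quartile factors, library totals, chromosome medians, DESeq2 and p under 0.01. Without 1 library, rises numbered 1 to 2, end-joining falls 0 to 1 (1 without scrambled replicate 2) and single-strand break falls 0 to 2. The causes were not tested.

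Direction reversed for 8 genes, in log2: Brca2 was at 0.0017 with library totals and ran between −0.0583 and 0.0154 without 1 library, Fancl between −0.139 and 0.0248, Fancm between −0.0363 and 0.0346 (0.0140 with upper-quartile factors, 0.0205 with library totals) and Atm between −0.0250 and 0.0285 (0.0183 with upper-quartile factors, 0.0249 with library totals, 0.00069 at 1 CPM in 4 libraries). With chromosome medians removed, Fanca was at −0.0700, Xrcc5 at −0.0207, Atm at 0.0844, Atr at 0.0373 and Chek2 at −0.0372.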
